A study of Sus scrofa with 14 samples.

Results

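Ion channels and their partners were followed across pig meniscus tissue, knee cartilage and cultured meniscus cells. The set was chosen by gene name from 9 proposed names: PIEZO1, PIEZO2, TRPV4, AQP1, CLCA1, KCNA6, KCNK12, ANO6 and SNTB1. A name counted as a member where the deposited count table, which lists 25880 genes, carries it as a gene name, and 7 of the 9 did. PIEZO2 and AQP1 have count rows without a gene name in that table, so their rows were found through a reference table that pairs gene IDs with symbols, and they are described here as related genes rather than as members. The names were selected with earlier results of these data in view, which compared meniscus with cartilage and tissue with cultured cells. For the named genes those comparisons are therefore given as values with no p-value.

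Tissue and cells came from skeletally mature female pigs (Sus scrofa) obtained at an abattoir, with no genetic change or drug in any group. Outer P3 cells (n = 2) and inner P3 cells (n = 3) were meniscus cells grown as a monolayer to passage 3. Outer zone tissue (n = 3) and inner zone tissue (n = 3) were explants of the medial meniscus, and cartilage (n = 3) was full-thickness femoral cartilage. The inner explants reached into the middle of the meniscus width, and explants were spread over the horns and midbody. All explants were kept in culture for 3 days before RNA was taken. The cells did not come from the same donors as the explants, and RNA was isolated by a different protocol from ground tissue than from cells, so passage, donor and isolation cannot be told apart. For each zone the explants were taken singly from 3 menisci, so the zones share menisci, but the sources used here do not say which libraries belong together, and the replicate numbers match only in part. The zone tests below do not use a pairing. A p-value here reflects the scatter of libraries, which may in part be technical.

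An ion channel lets ions cross the cell membrane when it is opened by stretch, swelling, voltage or calcium. Meniscus and cartilage cells live under repeated loading, and in both tissues mechanically opened calcium entry is studied as the first step by which a cell senses load. PIEZO1 is a large cation channel gated by membrane stretch, and TRPV4 is a calcium-permeable channel that responds to osmotic swelling and to loading in chondrocytes. ANO6 moves phospholipids between the leaflets of the membrane and conducts ions when calcium rises. KCNA6 is a voltage-gated potassium channel subunit, and KCNK12 belongs to the two-pore domain potassium channels and carries little current when expressed alone. Despite the name of the set, 2 of the 7 are not channels: CLCA1 is a secreted protein that regulates calcium-activated chloride current, and SNTB1, beta-1-syntrophin, is an adaptor of the dystrophin complex.

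Library totals ranged between 24440213 and 43304412 reads, and all 7 members passed the filter of at least 10 reads over all 14 libraries, as did 15707 genes. Levels are given as CPM, the read count of a gene relative to the total of its library, scaled by TMM (trimmed mean of M-values). The summed level of 10 chondrocyte markers lay between 862 and 1560 CPM in P3 cells, between 8320 and 51500 CPM in meniscus tissue and between 53500 and 121000 CPM in cartilage, and that of 9 fibroblast markers between 153000 and 220000 CPM in P3 cells, against 11000 to 27000 CPM in the tissues. In P3 cells the fibroblast sum is carried by COL1A1, COL1A2 and COL3A1. DCN of the same list went the other way, at 708 CPM in outer and 623 CPM in inner P3 cells, against 4391 CPM in outer tissue. So did FAP, at 94.2 CPM in outer and 90.5 CPM in inner P3 cells, against 170 CPM in outer tissue. LUM and PDGFRA were lower on average in outer P3 cells than in outer tissue, but higher in inner P3 cells than in inner tissue. THY1 and PDGFRB were higher on average in P3 cells than in the tissue of either zone. Endothelial genes separated the outer tissue libraries from each other. VWF, CDH5, KDR and PLVAP lay between 56.0 and 86.4 CPM in outer replicate 3 and between 16.6 and 35.3 CPM in outer replicate 6, but between 0 and 0.567 CPM in outer replicate 2. Inner tissue was at or below 0.130 CPM for these 4. PECAM1, also endothelial, had 8.42 CPM in outer replicate 2, 207 CPM in replicate 3 and 82.1 CPM in replicate 6, against 3.25 to 4.59 CPM in inner tissue. The erythroid list had 1 of 9 genes tested, and its sum never passed 0.081 CPM.

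PIEZO1 was the most evenly expressed member. It lies on chromosome 6, positions 914480 to 967113 on the plus strand of the Sscrofa11.1 build, and its exons overlap those of CTU2 on the opposite strand, so reads of both genes may be mixed if strand was not used in counting. PIEZO1 had 124 and 147 CPM in outer P3 cells, and 150.3, 159 and 147 CPM in inner P3 cells. In outer tissue it had 83.1, 81.2 and 63.4 CPM, in inner tissue 82.2, 73.0 and 86.6 CPM, and in cartilage 63.3, 50.7 and 79.3 CPM. All 5 cell libraries lay above all 9 tissue libraries, while the 3 tissues overlapped. The fitted log2 fold change was 0.84 ± 0.18 (SE) for outer P3 cells over outer tissue and 0.91 ± 0.16 for inner P3 cells over inner tissue. Against cartilage it was 0.24 ± 0.16 in outer tissue and 0.32 ± 0.16 in inner tissue.

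TRPV4, on chromosome 14 from 41125819 to 41169582 on the plus strand, went the other way between cells and tissue. It had 5.52 and 6.81 CPM in outer P3 cells, and 5.79, 7.17 and 6.05 CPM in inner P3 cells. Outer tissue gave 80.1, 47.4 and 29.1 CPM, inner tissue 139, 53.6 and 109 CPM, and cartilage 50.7, 28.1 and 74.8 CPM. The cells formed a tight group below the lowest tissue library, and the 3 tissues overlapped widely. The log2 fold change of P3 cells was -3.08 ± 0.52 against outer tissue and -3.99 ± 0.46 against inner tissue, and -3.03 ± 0.38 against cartilage. Against cartilage, the difference was 0.03 ± 0.41 in outer tissue and 0.98 ± 0.41 in inner tissue. In bulk RNA, fewer cells that carry a transcript and less of it per cell cannot be told apart.

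**Figure D1:**
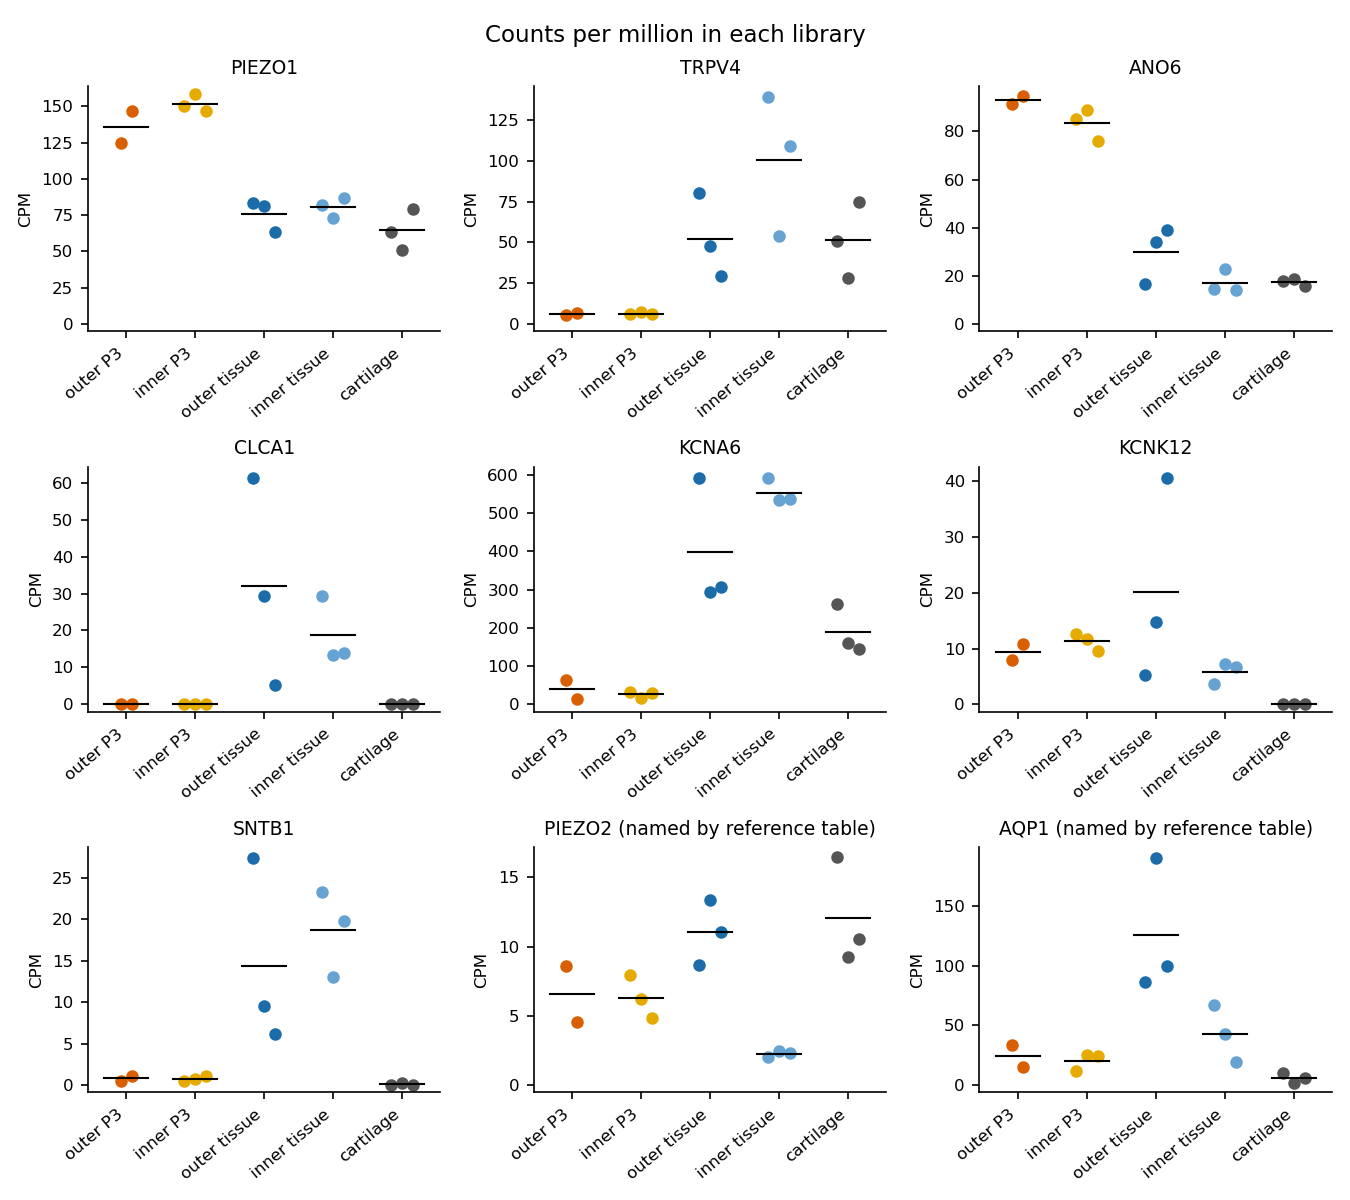
CPM of the 7 members and of PIEZO2 and AQP1 in each library, with a panel for each gene and a linear axis of its own. Points are libraries and black lines are group means. CLCA1 and SNTB1 stand clearly above 0 only in meniscus tissue, KCNK12 is near 0 only in cartilage, and PIEZO1 and ANO6 are highest in P3 cells.

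PIEZO2, the paralog of PIEZO1 known from touch and body position sensing, was the mechanically gated gene with the clearest difference between zones. It lies on chromosome 6 from 97644115 to 97945693. PIEZO2 had 8.67, 13.4 and 11.09 CPM in outer tissue, against 2.05, 2.45 and 2.28 CPM in inner tissue, with no overlap. Cartilage gave 16.5, 9.25 and 10.6 CPM. P3 cells lay between these levels, at 8.62 and 4.57 CPM for outer cells and 7.92, 6.18 and 4.86 CPM for inner cells. Per kilobase of longest RefSeq transcript, mean PIEZO2 reached 0.695 CPM in outer P3 cells, 0.666 CPM in inner P3 cells, 1.16 CPM in outer tissue, 0.238 CPM in inner tissue and 1.28 CPM in cartilage. PIEZO1 gave 16.4, 18.4, 9.19, 9.76 and 7.80 CPM per kilobase in the same order, so PIEZO1 was the more abundant PIEZO transcript in every group on this scale.

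ANO6, on chromosome 5 from 76112428 to 76337073, was highest in cultured cells. It had 91.5 and 94.9 CPM in outer P3 cells and 85.1, 89.1 and 75.9 CPM in inner P3 cells. Outer tissue gave 16.4, 34.2 and 39.1 CPM, inner tissue 14.4, 23.0 and 14.1 CPM, and cartilage 18.0, 18.8 and 15.6 CPM. No cell library overlapped a tissue library. The log2 fold change was 1.64 ± 0.29 for outer P3 cells over outer tissue and 2.28 ± 0.28 for inner P3 cells over inner tissue. The outer tissue library with the lowest ANO6 was replicate 2, which was also lowest in the endothelial genes, and the part of the cell makeup in this difference was not tested.

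CLCA1 was the most restricted member. It lies on chromosome 4 from 129621259 to 129655385 on the minus strand, where it overlaps ODF2L on the other strand without shared exons. Outer tissue had 61.3, 29.2 and 5.23 CPM, and inner tissue 29.3, 13.4 and 14.02 CPM. The 3 cartilage libraries held 2 CLCA1 reads in all, inner P3 cells also 2 reads, and outer P3 cells none, which allows up to 0.0360 CPM in outer P3 cells by a limit of 3 reads over the group. Summed over libraries, CLCA1 was, relative to library size, 923 times higher in outer tissue than in cartilage (95% exact binomial interval 255 to 7630) and 641 times higher in inner tissue than in cartilage (177 to 5300). Outer P3 cells were at least 756-fold lower than outer tissue. Inner tissue over inner P3 cells gave a ratio of 1110 (306 to 9140). These intervals cover counting error only. The fitted log2 difference of outer tissue from cartilage was 9.90 with all libraries and 9.02 without outer replicate 2, the library with the highest CLCA1 level.

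SNTB1, on chromosome 4 from 18288756 to 18524362 on the plus strand, had nearly the same pattern. It had 27.4, 9.58 and 6.20 CPM in outer tissue and 23.3, 13.0 and 19.8 CPM in inner tissue. In cartilage it had 6 reads, all in replicate 2, which gave 0.271 CPM there and 0 in the other replicates. P3 cells kept a low level of 0.431 and 1.13 CPM for outer cells and 0.443, 0.738 and 1.05 CPM for inner cells. Summed over libraries, SNTB1 was 142 times higher in outer tissue than in cartilage (64.9 to 387) and 213 times higher in inner tissue than in cartilage (97.9 to 582). The log2 fold change of P3 cells was -4.18 ± 0.81 against outer tissue and -4.63 ± 0.70 against inner tissue. Unlike CLCA1, SNTB1 was above its cartilage level in every cell library, by a ratio of 8.92 for P3 cells over cartilage (4.01 to 24.7). Single libraries moved these values. The fitted log2 difference of outer tissue from cartilage was 7.28, but 6.41 without outer replicate 2 and 6.66 without cartilage replicate 1, and that of inner tissue was 7.66, but 7.05 without cartilage replicate 1. For P3 cells over cartilage it was 3.06, but 2.45 without cartilage replicate 1. Without cartilage replicate 2 no cartilage read is left. Outer P3 cells differed from outer tissue by -5.04 without P3 replicate 148 and by -3.31 without tissue replicate 2.

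KCNK12, on chromosome 3 from 92990129 to 93044989 on the plus strand, was also nearly absent from cartilage, with 3 reads in 3 libraries, but stayed present in cells. Outer P3 cells had 7.97 and 10.9 CPM, and inner P3 cells 12.7, 11.7 and 9.65 CPM. Outer tissue gave 5.35, 14.7 and 40.6 CPM and inner tissue 3.74, 7.22 and 6.71 CPM. The spread in outer tissue was the widest of any group for this gene, with replicate 2 inside the range of inner tissue and replicate 6 far above it. Summed over libraries, KCNK12 was 521 times higher in outer tissue than in cartilage (178 to 2530), 133 times higher in inner tissue than in cartilage (45.2 to 646), and 238 times higher in P3 cells than in cartilage (81.5 to 1160). P3 cells differed from outer tissue by a log2 fold change of -1.10 ± 0.61, with overlap, and from inner tissue by 0.95 ± 0.54, without overlap. Without outer tissue replicate 6, the first of these was -0.09. Against cartilage, the fitted log2 difference of outer tissue was 8.72, but 7.71 without that library and 9.64 without cartilage replicate 2, and without the same cartilage library inner tissue gave 7.86 in place of 6.94 and P3 cells 8.65 in place of 7.75.

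The promoters of the 3 members with 6 or fewer cartilage reads are shown because they share this pattern. Each is the 250 bases before the start of the RefSeq gene model, read from the Sscrofa11.1 genome and written 5′ to 3′ on the strand of the gene. Capitals mark matches on either strand to 4 motifs. The TATA box was searched as TATAAA. The motif of AP-1 was searched as TGANTCA. The motif of TEAD factors was searched as GGAATG. The motif of SOX factors was searched as ACAAAG. The CLCA1 promoter covers chr4:129655386-129655635 on the minus strand, that of SNTB1 chr4:18288506-18288755 on the plus strand and that of KCNK12 chr3:92989879-92990128 on the plus strand.
CLCA1: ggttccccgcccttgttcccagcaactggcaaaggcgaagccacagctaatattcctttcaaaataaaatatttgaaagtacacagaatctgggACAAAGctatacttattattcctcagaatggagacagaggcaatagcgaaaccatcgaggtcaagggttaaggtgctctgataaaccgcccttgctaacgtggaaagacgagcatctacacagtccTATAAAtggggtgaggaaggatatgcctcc
SNTB1: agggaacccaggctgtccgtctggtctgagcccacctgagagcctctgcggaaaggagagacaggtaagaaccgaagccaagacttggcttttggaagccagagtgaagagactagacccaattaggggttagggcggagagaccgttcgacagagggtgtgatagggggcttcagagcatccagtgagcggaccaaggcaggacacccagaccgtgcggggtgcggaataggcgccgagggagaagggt
KCNK12: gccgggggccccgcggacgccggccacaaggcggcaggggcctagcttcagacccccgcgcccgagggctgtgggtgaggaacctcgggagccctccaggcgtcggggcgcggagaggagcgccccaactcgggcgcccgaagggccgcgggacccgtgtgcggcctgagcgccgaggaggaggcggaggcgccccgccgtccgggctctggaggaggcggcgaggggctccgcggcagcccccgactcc
The CLCA1 promoter held TATAAA from 30 to 25 bases before the start and ACAAAG from 156 to 151 bases before it. The SNTB1 and KCNK12 windows held none of the 4 motifs. Among 20664 protein-coding promoters of the same length, 10.4% held TATAAA, 5.48% TGANTCA, 10.4% GGAATG and 12.4% ACAAAG, so these matches are common by themselves. The windows differed in base composition, with 45.6% G and C for CLCA1, 59.6% for SNTB1 and 80.0% for KCNK12, against a median of 57.2% over all promoters (quartiles 47.2% and 67.2%).

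KCNA6, on chromosome 5 from 65625581 to 65659557 on the minus strand, had the highest level of the 7 members in all 3 tissues per kilobase of transcript. Outer P3 cells had 63.6 and 15.0 CPM, and inner P3 cells 33.3, 17.9 and 28.6 CPM. Outer tissue gave 592, 294 and 306 CPM, inner tissue 590, 534 and 535 CPM, and cartilage 263, 161 and 146 CPM. The 3 inner tissue libraries lay within 1 narrow band, and no tissue library overlapped a cell library. The log2 fold change of P3 cells was -3.34 ± 0.57 against outer tissue and -4.38 ± 0.51 against inner tissue. Against cartilage it was 1.07 ± 0.44 in outer tissue and 1.54 ± 0.45 in inner tissue, again without overlap. The outer P3 cells rest on 2 libraries that differ widely, and their log2 fold change against outer tissue was -4.73 without replicate 147 and -2.64 without replicate 148. Against cartilage, that of P3 cells was -3.25 without replicate 147. Per kilobase, mean KCNA6 was 4.58 CPM in outer P3 cells, 3.10 CPM in inner P3 cells, 46.3 CPM in outer tissue, 64.4 CPM in inner tissue and 22.1 CPM in cartilage.

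AQP1, a water channel of endothelium and red cells that chondrocytes also carry, lies on chromosome 18 from 42063482 to 42076741. It had 33.1 and 15.4 CPM in outer P3 cells and 11.7, 24.7 and 24.4 CPM in inner P3 cells. Outer tissue gave 86.7, 190 and 99.5 CPM, inner tissue 66.6, 42.8 and 18.9 CPM, and cartilage 9.73, 1.99 and 5.85 CPM. The 3 tissues did not overlap, in the order outer, inner and cartilage. The log2 fold change against cartilage was 4.41 ± 0.63 in outer tissue and 2.86 ± 0.60 in inner tissue, and P3 cells differed by -2.37 ± 0.67 from outer tissue and by -1.07 ± 0.55 from inner tissue. Without cartilage replicate 1 the differences from cartilage were 5.00 and 3.45, and without outer P3 replicate 147 that of outer cells from outer tissue was -3.03. AQP1 was highest in outer replicate 3, the library with the most VWF (82.3 CPM), and stood at 86.7 CPM in replicate 2, where VWF was 0. Any part of endothelial cells in the AQP1 levels was not tested.

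**Figure D2:**
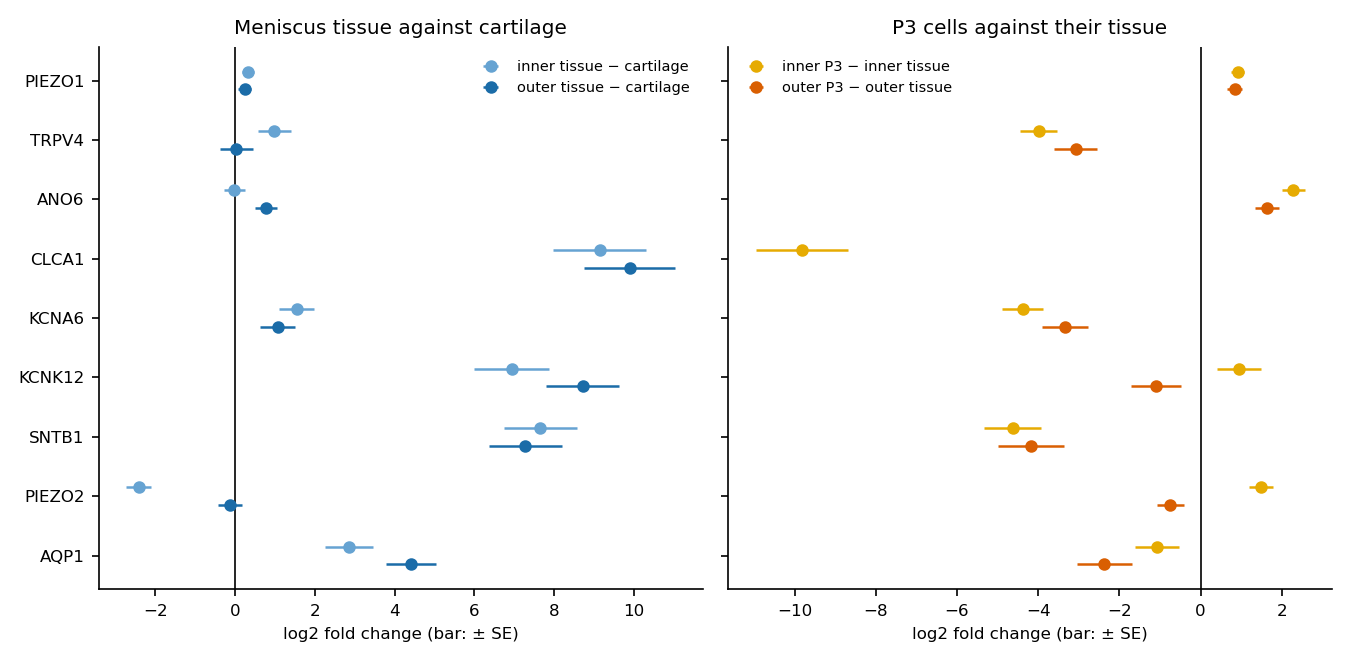
Fitted log2 fold changes (points) and their standard errors (bars) for meniscus tissue over cartilage (left) and for P3 cells over the tissue of their own zone (right). CLCA1 in outer P3 cells is left out because that group had no reads. CLCA1, KCNK12 and SNTB1 stand far to the right in the left panel, where their fitted values rest on 2, 3 and 6 cartilage reads and are no bound, and ANO6 and PIEZO1 are the members to the right of 0 for both zones in the right panel.

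In outer tissue 4 of 7 (CLCA1, KCNA6, KCNK12 and SNTB1) lay above all cartilage libraries and 0 below, and in inner tissue the same counts held for the same genes. Over all genes tested, 46.2% did not overlap between outer tissue and cartilage and 41.9% between inner tissue and cartilage. Because the choice used these contrasts, nothing is read from the counts. In P3 cells against inner tissue all 7 members were without overlap, 3 higher (PIEZO1, ANO6 and KCNK12) and 4 lower (TRPV4, CLCA1, KCNA6 and SNTB1), where 62.6% of all genes did not overlap. Against outer tissue, 6 of 7 members did not overlap in outer P3 cells, where 61.3% of all genes did not. The median log2 fold change of the 7 members was -3.08 for outer P3 cells over outer tissue and -3.99 for inner P3 cells over inner tissue, beside -0.01 and 0.01 over all genes. The choice also used the comparisons of P3 cells with tissue, so nothing is read from these counts or medians either. P3 cells against cartilage are the sum of 2 comparisons known at the choice of members and are described only. There PIEZO1 differed by a log2 fold change of 1.16 ± 0.15 and ANO6 by 2.34 ± 0.26, with KCNA6 at -2.55 ± 0.40.

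The comparison of zones asks whether the outer rim and the inner part of the meniscus differ in these genes. It was not itself used to choose the members. However, each zone difference can be formed from the comparisons that were in view at that choice. Zone p-values are therefore not fully independent of the choice. In tissue, 0 of 7 members were called by edgeR's quasi-likelihood test at an adjusted p under 0.01 and a 2-fold difference, where 0.0318% of all genes tested were called (5 genes, all higher in outer tissue). KCNK12 averaged 20.2 ± 18.3 CPM in outer tissue and 5.89 ± 1.88 CPM in inner tissue (SD, n = 3 each), a log2 fold change of 1.79 (95% interval 0.61 to 2.96, adjusted p = 0.113). ANO6 averaged 29.9 ± 11.9 CPM in outer tissue and 17.2 ± 5.06 CPM in inner tissue, a log2 fold change of 0.80 (0.23 to 1.38, adjusted p = 0.137). In both genes outer replicate 2 lay with the inner libraries. Without it, the adjusted p was 0.00642 for KCNK12 at a log2 fold change of 2.23 and 0.00548 for ANO6 at 1.09, and both were called, in a fit that called 2.32% of all genes. For KCNK12 the log2 fold change was 0.77 without outer replicate 6. Over the 13 alternatives of each result, the adjusted p ranged between 0.00642 and 0.67 for KCNK12 and between 0.00548 and 1 for ANO6.

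TRPV4 was the member lower in outer tissue by the widest margin, at 52.2 ± 25.8 CPM in outer tissue and 101 ± 43.4 CPM in inner tissue, a log2 fold change of -0.95 (-1.83 to -0.06, adjusted p = 0.22). PIEZO1 differed by -0.09 (-0.43 to 0.26, adjusted p = 0.802), an interval that leaves out a 2-fold difference in either direction. For CLCA1 the difference was 0.75 (-0.61 to 2.11, adjusted p = 0.524, and -0.14 without outer replicate 2), for KCNA6 -0.48 (-1.43 to 0.48, adjusted p = 0.571) and for SNTB1 -0.39 (-1.65 to 0.88, adjusted p = 0.753, and -1.25 without outer replicate 2), so differences of 2-fold could be neither shown nor excluded for these. All 7 members overlapped between the zones, where 16.9% of all genes did not.

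Of the related genes, PIEZO2 averaged 11.04 ± 2.35 CPM in outer tissue and 2.26 ± 0.202 CPM in inner tissue, a log2 fold change of 2.29 (1.62 to 2.95). Its unadjusted p was 5.59e-06 and its adjusted p 0.013, just outside the threshold. Over 13 alternatives the adjusted p lay between 3.15e-09 and 0.126 and the gene was called in 4, which were DESeq2, no filter on low counts, the replicate block and the fit without outer replicate 2. Outer replicate 2 was above all inner libraries in PIEZO2 (8.67 CPM), with VWF at 0 CPM and PECAM1 at 8.42 CPM. Whether cell makeup had a part in the PIEZO2 difference was not tested. AQP1 differed by a log2 fold change of 1.55 (0.36 to 2.75, adjusted p = 0.157), without overlap.

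**Figure D3:**
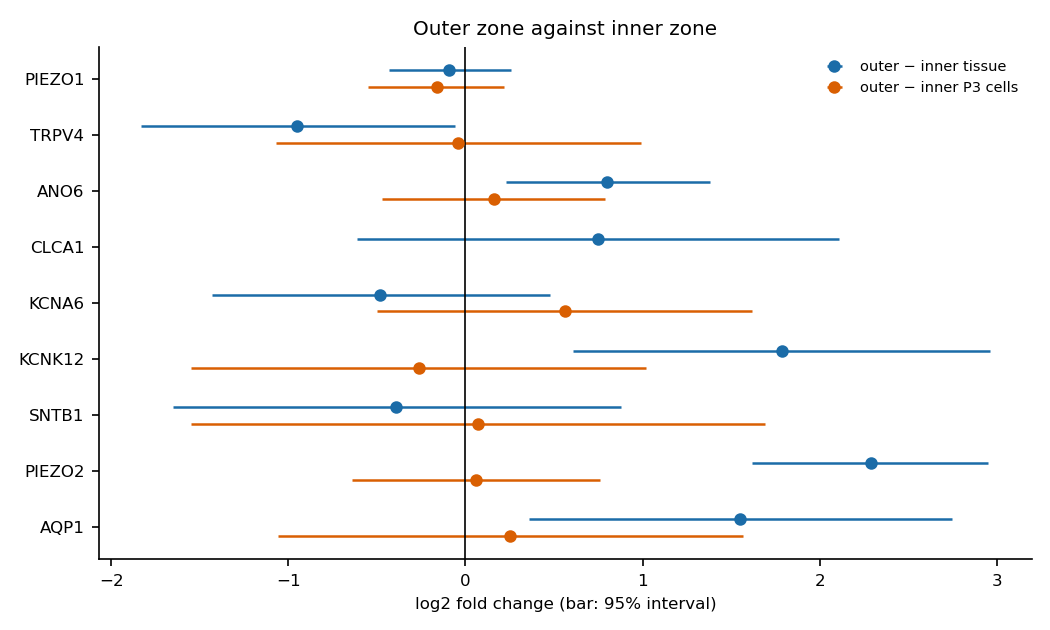
Log2 fold change of outer over inner zone in tissue (blue) and in P3 cells (orange), with 95% intervals from the edgeR fit over 14 libraries. CLCA1 in P3 cells is left out because it had 2 reads in 5 libraries. PIEZO2, KCNK12, AQP1 and ANO6 have tissue intervals to the right of 0, that of TRPV4 lies to the left, and every interval of P3 cells includes 0.

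In P3 cells 0 of 7 members were called between zones, and 2 did not overlap (PIEZO1 lower and ANO6 higher in outer cells), where 22.9% of all genes did not. For PIEZO1 the nearest libraries were 146.8 CPM in outer and 146.9 CPM in inner P3 cells. Of all genes, 0% were called between outer and inner P3 cells by edgeR, with 505 of 15707 at an unadjusted p under 0.05 and 10 called by DESeq2. Every member had an adjusted p of 1. The narrowest intervals were those of PIEZO1, with a log2 fold change of -0.16 (-0.55 to 0.22), and ANO6, with 0.16 (-0.47 to 0.79). Those of TRPV4 (-1.07 to 0.99), KCNK12 (-1.55 to 1.02), KCNA6 (-0.50 to 1.62) and SNTB1 (-1.55 to 1.69) still allow a 2-fold difference. CLCA1 could not be compared at this depth.

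Whether passage changed the members differently in the zones was tested as an interaction, the difference of outer P3 cells from outer tissue minus that of inner P3 cells from inner tissue. Both of these differences were in view when the members were chosen, so the p-values of the interaction are not fully independent of that choice. Of all genes, 0% were called by edgeR (1173 at an unadjusted p under 0.05) and 17 by DESeq2. The widest member difference with reads in every group was that of KCNK12, which was lower in outer P3 cells than in outer tissue and higher in inner P3 cells than in inner tissue, at an interaction of -2.05 (-3.80 to -0.29, adjusted p = 0.646), or -1.04 without outer tissue replicate 6. PIEZO2 had the same pattern, at -2.23 (-3.20 to -1.25, unadjusted p 0.00028, adjusted p = 0.541). Over 18 alternatives its adjusted p lay between 0.00505 (DESeq2) and 1, and it was called in that 1 alone.

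Among the 3 outer tissue libraries, several members ordered with markers of other cell types. The chondrocyte marker sum was 21400, 14300 and 8320 CPM in replicates 2, 3 and 6, and TRPV4, CLCA1 and SNTB1 had that same order. COL2A1, the main cartilage collagen, was at 3860, 1450 and 399 CPM there. Inner replicate 3, which had the lowest inner sum (16900 CPM), also had the lowest inner TRPV4, CLCA1 and SNTB1. Its CLCA1 level (13.4 CPM) was close to that of inner replicate 5 (14.02 CPM). The order did not hold at the upper end. Inner replicate 5 had the highest inner sum (51500 CPM), but TRPV4, CLCA1 and SNTB1 were all highest in inner replicate 2 (sum 36600 CPM). Cartilage had the highest sums of all, at 53500 to 121000 CPM, together with almost no CLCA1 or SNTB1. The endothelial marker sum, with 10 of 11 genes tested, was 140, 674 and 333 CPM in outer replicates 2, 3 and 6. In inner tissue it was 102 to 172 CPM. ERG of this list averaged 118 CPM in outer tissue, 117 CPM in inner tissue and 82.3 CPM in cartilage. It made up most of the sum in inner tissue, in cartilage and in outer replicate 2. ANO6 and KCNK12 were low in replicate 2 and higher in the other 2, though KCNK12 was highest in replicate 6 and not in replicate 3. The part of cell makeup in these levels was not tested.

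**Figure D4:**
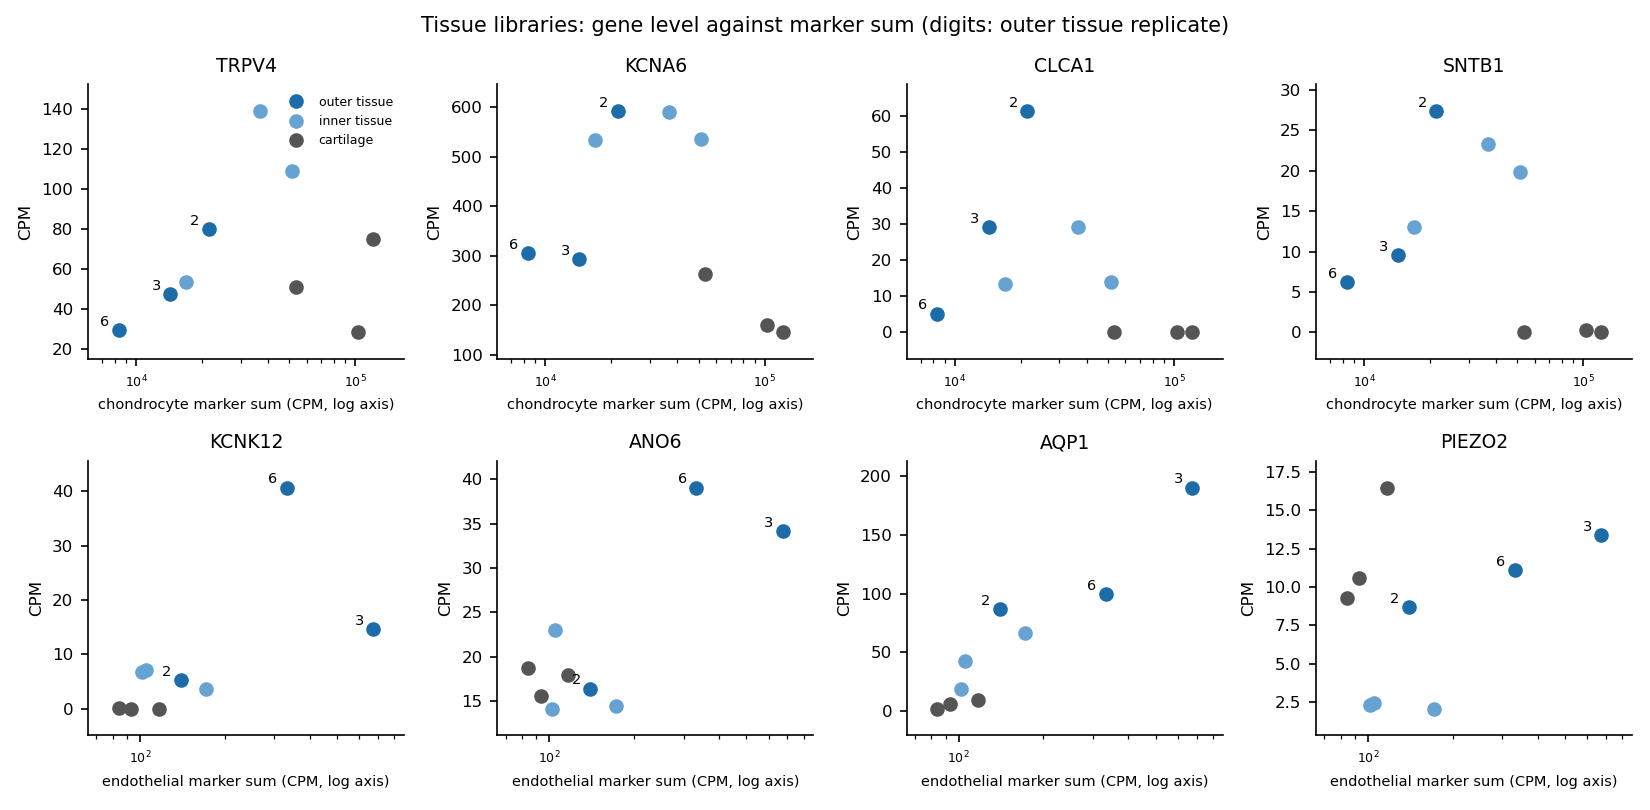
Level of each gene (CPM) in the 9 tissue libraries against the summed level of chondrocyte markers (top row) or endothelial markers (bottom row), on a log axis, with outer tissue replicates numbered. CLCA1 and SNTB1 are near 0 in cartilage although its chondrocyte marker sums are the highest, and PIEZO2 is above all inner tissue in outer replicate 2. Most of the endothelial sum in inner tissue, cartilage and outer replicate 2 is ERG.

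The genes whose pattern was most like a member's were taken by Pearson's r of log2(CPM + 1) over the 14 libraries, among 11811 other genes with a mean of at least 1 CPM, and are a description only, since the groups drive any such r. CLCA1 and SNTB1 stood among each other's closest 3, at r = 0.964, and both were close to the homeobox gene GBX2 (0.961 for CLCA1 and 0.976 for SNTB1). The TRPV4 pattern was closest to DYNLRB1 (0.989), FRZB (0.985), a secreted Wnt antagonist of cartilage, and TSPAN6 (0.982). ANO6 was closest to MEGF9 (0.994), NIN (0.993) and PTPN13 (0.992), KCNA6 to TRIR (0.983), NAXE (0.976) and FOXO3 (0.975), and PIEZO1 to EIF4EBP1 (0.964), MED27 (0.961) and IFRD1 (0.959). KCNK12 was closest to the thymidine kinase TK1 (0.966), PLAUR (0.962) and UBALD2 (0.959). TFPT (0.96) completed the 3 for CLCA1. Between members, TRPV4 and ANO6 ran in opposite directions (r = -0.957), as did KCNA6 and ANO6 (-0.873), while TRPV4 and KCNA6 ran together (0.912).

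Beyond the members, 274 genes of channel families and of the syntrophin and dystrophin complex were listed, of which 190 were tested. The lists were also drawn up with earlier results of these data known. Their shares and edgeR p-values, here and below, are therefore not fully independent of that choice. Most genes named from them were picked for large fold changes among the called genes, so their p-values are descriptive. Against cartilage, 25 of them fell and 11 rose in outer tissue (13.2% and 5.79%), where 6.50% of all genes fell and 8.56% rose. In inner tissue 15 fell and 3 rose (7.89% and 1.58%), where 4.60% of all genes fell and 4.45% rose. The median log2 fold change of the 190 was 0.17 in outer tissue and 0.00 in inner tissue, beside 0.06 and 0.00 over all genes. SCN2B, a sodium channel beta subunit, had 0.324, 0.284 and 0.0965 CPM in outer tissue, against 4.33, 9.65 and 7.55 CPM in cartilage (log2 fold change -4.95 ± 0.74, adjusted p = 0.000325). DMD, the dystrophin that syntrophins bind, averaged 3.04 CPM in outer tissue and 28.8 CPM in cartilage (-3.24 ± 0.52, adjusted p = 0.000505), and in inner tissue 4.05 CPM (-2.83 ± 0.51, adjusted p = 0.00159). TMC8, of the transmembrane channel-like family, fell in both zones, to 0.253 CPM in outer tissue and 0.678 CPM in inner tissue, against 3.80 CPM in cartilage.

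Among the channels that rose was KCNN4, an intermediate-conductance calcium-activated potassium channel, with 5.18, 6.34 and 14.4 CPM in outer tissue and 3.55, 6.31 and 1.79 CPM in inner tissue, against 0.0409, 0.0451 and 0.189 CPM in cartilage. Its log2 fold change was 6.54 ± 0.75 in outer tissue (adjusted p = 6.64e-05) and 5.38 ± 0.74 in inner tissue (adjusted p = 0.000303). CACNA2D1, a calcium channel auxiliary subunit, rose in outer tissue by 4.90 ± 0.77 (adjusted p = 0.000427), as did ATP2A3, a calcium pump of the endoplasmic reticulum, by 6.27 ± 1.16 (adjusted p = 0.00118). ATP2A3 followed the endothelial genes, with 0.284, 11.6 and 5.89 CPM in outer replicates 2, 3 and 6, and TMEM150C did so as well, with 0.648, 6.68 and 5.02 CPM. KCNMB4 was at least 47.7-fold higher in outer tissue, with no read in cartilage. TMEM120A rose in inner tissue to 19.3 CPM, against 9.64 CPM in cartilage, and averaged 21.7 CPM in outer tissue. These counts moved with single libraries: in outer tissue 36 calls became 21 without outer replicate 3 and 20 without outer replicate 6, and in inner tissue 18 calls became 10 without inner replicate 2, 8 without inner replicate 3 and 7 without cartilage replicate 3.

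P3 cells were then compared with tissue. In outer P3 cells 23 rose and 19 fell against outer tissue, where 8.36% of all genes rose and 8.30% fell, and in inner P3 cells 30 rose and 26 fell against inner tissue, where 13.6% of all genes rose and 12.1% fell. As shares of the 190 these were 12.1% and 10% for outer cells and 15.8% and 13.7% for inner cells. The 2 comparisons share no library, but the tissue zones share menisci, and the numbers 147 and 148 occur in both P3 groups. Both comparisons also come from the same fit, so genes called in both are not independent findings. Of the genes that rose, 21 were called in both, which is 91.3% of the outer and 70% of the inner calls, and of those that fell 18, which is 94.7% and 69.2%. Over all genes tested these shares were 90.1% and 55.4% for genes that rose and 88.5% and 60.9% for genes that fell. The outer count of 42 became 22 without outer P3 replicate 147 and 20 without outer P3 replicate 148.

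Voltage-gated calcium channels, which open on depolarisation, had 7 of 15 tested genes called higher in both zones and 0 called lower in either, and the other 8 were not called. The share called higher was 46.7%, where 8.36% of all genes rose in outer P3 cells and 13.6% in inner P3 cells. Over all genes, 8.30% fell in outer and 12.1% in inner P3 cells. The 7 were CACNA1A, CACNA1C, CACNA1G, CACNA2D1, CACNA2D2, CACNB1 and CACNB3, named after their values were seen. CACNA2D1 had 35.8 and 39.3 CPM in outer P3 cells and 10.9, 14.3 and 35.4 CPM in inner P3 cells, against 3.00, 6.14 and 5.62 CPM in outer tissue and 0.195, 0.701 and 1.67 CPM in inner tissue. CACNA1C, a pore subunit of L-type channels, averaged 40.5 CPM in outer P3 cells and 15.7 CPM in outer tissue (log2 fold change 1.37 ± 0.31), and 36.4 CPM in inner P3 cells and 10.7 CPM in inner tissue (1.77 ± 0.29). The T-type pore subunit CACNA1G rose by 3.91 ± 0.65 in outer cells. The median log2 fold change of this family was 1.50 in outer cells and 1.56 in inner cells, beside -0.01 and 0.01 over all genes. The family was singled out after its values were seen. The summed level of 10 pericyte and smooth muscle markers was 3530 to 6600 CPM in P3 cells, against 353 to 1410 CPM in all tissues. ACTA2 made up most of that sum in P3 cells, and CSPG4 most of it in the tissues. ACTA2 averaged 4697 CPM in outer P3 cells and 19.0 CPM in outer tissue, and RGS5 of the same list 0.0512 CPM in outer P3 cells and 73.0 CPM in outer tissue. CSPG4 (65.9 CPM against 476 CPM), KCNJ8, ABCC9 and MCAM were likewise lower on average in outer P3 cells than in outer tissue. NOTCH3, DES, MYH11 and CNN1 were higher. The part of these markers in the result was not tested.

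Potassium channels moved both ways. KCNK5, a two-pore relative of KCNK12, had 0.243 and 0.260 CPM in outer P3 cells and 1.04, 0.646 and 0.524 CPM in inner P3 cells. Outer tissue gave 57.0, 19.9 and 10.4 CPM and inner tissue 86.9, 32.1 and 72.3 CPM, so KCNK5 fell by 6.82 ± 0.87 on the log2 scale in outer cells and by 6.45 ± 0.67 in inner cells. Of the 7 other two-pore channels tested, KCNK5 among them, 2 fell in each zone (28.6%) and 0 rose. Over all genes 8.30% fell and 8.36% rose in outer P3 cells, and 12.1% fell and 13.6% rose in inner P3 cells. KCNA1, of the same subfamily as KCNA6, averaged 0.437 CPM in outer P3 cells and 11.4 CPM in outer tissue (-4.73 ± 1.06), and 0.429 CPM in inner P3 cells and 28.2 CPM in inner tissue (-6.09 ± 0.94). KCNS1, a modulatory subunit, fell to 0.0864 CPM in outer P3 cells, against 6.50 CPM in outer tissue. In the opposite direction, KCNG1 had 9.43 and 11.7 CPM in outer P3 cells and 14.4, 10.5 and 21.8 CPM in inner P3 cells, against at most 0.597 CPM in any tissue library. KCNH2, the cardiac repolarisation channel, had no read in outer tissue and was at least 144-fold higher in outer P3 cells, and KCNH1 was at least 51.1-fold higher by the same limit.

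Of the other families, the water and glycerol channel AQP3 fell in both zones. It averaged 0.862 CPM in outer P3 cells and 88.7 CPM in outer tissue (-6.68 ± 1.12), and 0.929 CPM in inner P3 cells and 346 CPM in inner tissue (-8.58 ± 1.00). LRRC8E, a subunit of the volume-regulated anion channel, rose to 10.5 CPM in outer P3 cells, against 0.456 CPM in outer tissue (4.49 ± 0.48). The acid-sensing channel ASIC1 rose in inner P3 cells to 3.28 CPM, against 0.0443 CPM in inner tissue. SCN9A fell in outer P3 cells to 0.389 CPM, against 10.6 CPM in outer tissue. Among TRP channels, TRPV2 fell alongside TRPV4, to 0.991 CPM in outer P3 cells, against 4.05 CPM in outer tissue, and to 1.12 CPM in inner P3 cells, against 3.77 CPM in inner tissue. Among anoctamins, ANO8 rose as ANO6 did, by 1.38 ± 0.17 in outer cells and 1.61 ± 0.15 in inner cells, and ANO5 fell by 4.62 ± 0.75 and by 4.00 ± 0.54. ANO5, ANO8 and TRPV2 were named after their values were seen.

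**Figure D5:**
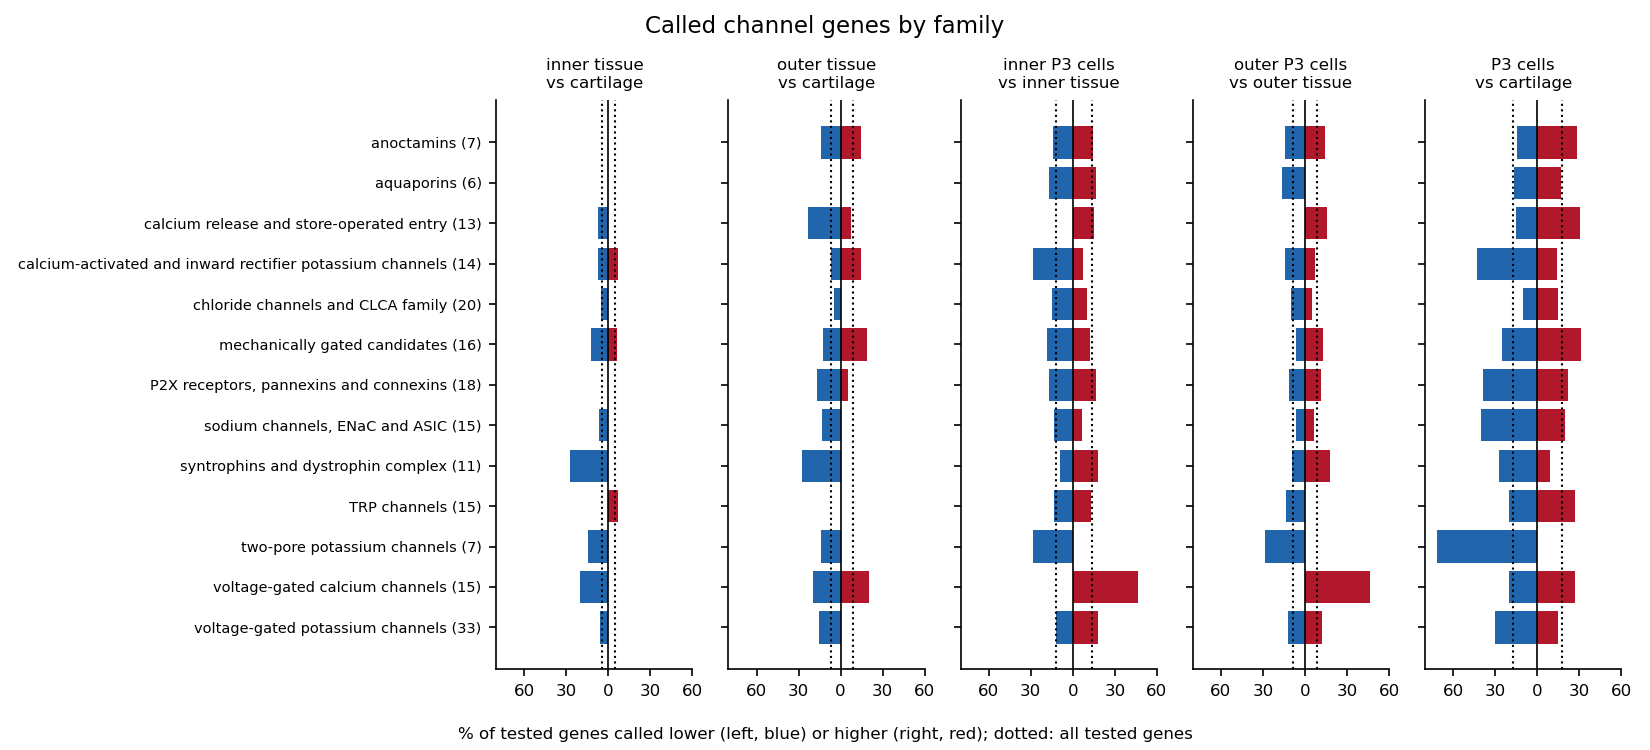
Share of tested genes in each channel family that were called lower (blue, left) or higher (red, right) in 5 comparisons, with the number of genes tested in brackets and the share over all genes as dotted lines. Voltage-gated calcium channels have 7 of 15 genes called higher and 0 called lower in both comparisons of P3 cells with tissue.

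Against cartilage, P3 cells had 38 channel genes higher and 53 lower (20% and 27.9%), where 17.8% of all genes rose and 17.1% fell. The median log2 fold change of the list was 0.21, beside 0.04 over all genes. KCNS1 fell by 8.92 ± 0.65, to 0.0922 CPM in P3 cells, against 45.1 CPM in cartilage, and AQP3 fell by 7.87 ± 0.82. The family of two-pore potassium channels was the one with the largest share of falls, at 5 of 7. CACNA2D1 rose by 7.38 ± 0.76, to 27.2 CPM in P3 cells, against 0.158 CPM in cartilage. Between zones, 0 of the 190 genes were called in tissue by edgeR (50 at an unadjusted p under 0.05 and 6 by DESeq2), and 6 were called without outer tissue replicate 2. Those 6 are 3.16% of the list, where DESeq2 called 2.25% of all genes and the fit without that library 2.32%. In P3 cells 0 were called by either tool, with 12 at an unadjusted p under 0.05. The interaction called 0 by either tool, with 20 at an unadjusted p under 0.05.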

How the data were processed

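Bulk RNA-seq libraries (stranded mRNA kit) of 14 samples were trimmed, aligned with STAR to the Sscrofa11.1 genome (Ensembl release 91) and counted per gene with HTSeq by the authors, who dropped reads that mapped to several places. The deposited values used here are raw counts per gene. Versions and the strand setting of the counting are not given in the sources used here. The 5 tables of normalized counts per comparison were not used, since they hold the same libraries.

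Genes with at least 10 reads over all libraries were fitted with edgeR 4.0.16 (R 4.3.3) as 5 group means over 14 libraries, with TMM factors, the quasi-likelihood F-test and Benjamini-Hochberg adjustment over all genes tested. Calls needed an adjusted p under 0.01 together with an absolute log2 fold change above 1. The fit was tested on simulated data. Fold changes are given with the standard error of the fit. Groups with 3 or fewer reads, and SNTB1 in cartilage with 6, are compared by summed reads with exact (Clopper-Pearson) 95% binomial intervals, and groups with 0 reads against a limit of 3 reads over the group. Alternatives were RLE size factors, DESeq2 1.42.0, other filters, fewer libraries, a test against a 2-fold change, each library left out and a replicate block. Named genes of the wider lists are up to 5 called genes in each direction per comparison, ranked by fold change, limited to genes whose groups did not overlap and whose higher mean reached 1 CPM, unless stated. Members and lists were chosen with earlier results of these data known. A planned p-value for members in P3 cells against cartilage is not given, because that comparison is the sum of others known at the choice. Promoter sequences are from the RefSeq Sscrofa11.1 genome.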

Additional observations from a re-analysis of the deposited data

How the results depend on the processing

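Scaling by RLE, no filter and filterByExpr left every channel count between groups within 1.5 times its value, with the same sign for every member, PIEZO2 and AQP1. PIEZO2 between tissue zones was called with DESeq2 (2.28), no filter (2.29), the replicate block (2.26) and without outer replicate 2 (2.43), and its interaction with DESeq2 only. Testing against a 2-fold change lowered the counts to 7 for outer tissue and 3 for inner tissue over cartilage, 19 for outer and 33 for inner P3 cells over tissue, and 49 for P3 cells over cartilage, since it asks for more than a 2-fold change. Fits on the libraries of the comparison alone gave 18, 10 and 23 calls for outer tissue and inner tissue over cartilage and outer P3 cells over outer tissue. DESeq2 gave 31 calls for inner tissue over cartilage and 6 between zones of tissue, and the cause was not tested. With each library left out in turn, the counts ranged between 20 and 36 for outer tissue over cartilage, 7 and 12 for inner tissue over cartilage, 20 and 41 for outer P3 cells over outer tissue, and 0 and 6 between zones of tissue.

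Same-numbered outer and inner libraries correlated in their deviations at 0.492 and 0.295 in tissue and at 0.231 and 0.265 in P3 cells, but outer replicate 6 and inner replicate 3 reached 0.307, and with 2 pairs for each kind the number was not taken as a pairing, although the zones share menisci. Same-numbered meniscus and cartilage libraries correlated at -0.0297 and -0.0396 for outer tissue and at -0.0165 and -0.232 for inner tissue. The sources used here do not link cartilage numbers to explant numbers, so a block by number is no check of a pairing there. A replicate block gave 9 calls for outer tissue and 7 for inner tissue over cartilage, 1 between zones of tissue (89 over all genes, beside 5) and 0 elsewhere. Under the replicate block PIEZO1 between tissue zones was 0.07 in place of -0.09, and PIEZO2 between P3 zones -0.16 in place of 0.06. No paired analysis was possible for P3 cells over tissue or cartilage because these share no number.

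Among tested differences, signs turned with single libraries only where the difference was not called. Differences from cartilage have no test for these genes, and signs turned there as well. These ranged between -0.42 and 0.40 for TRPV4 in outer tissue, -0.29 and 0.16 for PIEZO2 in outer tissue, and -0.29 and 0.10 for ANO6 in inner tissue. The log2 fold change of outer over inner P3 cells ranged between -0.40 and 0.70 for AQP1, -0.82 and 1.26 for KCNA6, -0.46 and 0.45 for PIEZO2, -0.80 and 0.58 for SNTB1 and -0.20 and 0.10 for TRPV4. Between zones of tissue it ranged between -0.14 and 1.26 for CLCA1 and -0.16 and 0.03 for PIEZO1, and the interaction between -0.35 and 1.74 for KCNA6, -0.20 and 0.04 for PIEZO1 and -0.41 and 1.32 for SNTB1. Without 1 outer P3 library, the other is assumed to vary like the other groups. Groups of 2 or 3 libraries limit the precision, and genes with a few reads in a group are limited by depth.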

Other observations

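SNTB1 binds the dystrophin complex. Of 11 other tested genes of the syntrophins and that complex, 0 rose in outer or inner tissue against cartilage. Over all genes tested 8.56% rose in outer tissue and 4.45% in inner tissue, so 0 of 11 is close to that share. In each zone 3 of the 11 fell, where 6.50% of all genes fell in outer tissue and 4.60% in inner tissue. SSPN, sarcospan, fell to 121 CPM in outer tissue and 149 CPM in inner tissue, against 369.9 CPM in cartilage (edgeR adjusted p = 0.00011 in outer and 0.00059 in inner tissue). DMD fell as well. In P3 cells SGCB and SGCE rose against both zones, with SGCB at 157 CPM in outer P3 cells, against 55.4 CPM in outer tissue, and at 166 CPM in inner P3 cells, against 37.3 CPM in inner tissue. Those 2 are 18.2% of the 11, where 8.36% of all genes rose in outer P3 cells and 13.6% in inner P3 cells. In each zone 1 of the 11 was called lower in P3 cells, and it was not the same gene. The genes named here were singled out after their values were seen.

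The connexin GJA4 had 12.7 and 8.37 CPM in outer tissue replicates 3 and 6, but 0.121 CPM in replicate 2. It had no read in any of the 5 P3 libraries and was at least 75.7-fold lower in P3 cells than in cartilage. That limit rests mainly on cartilage replicate 1, which held 63 of the 77 cartilage reads. GJB6 also had no read in P3 cells.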
